A study of Mus musculus with 12 samples.

Results

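The response to doxycycline (dox) was measured in mouse embryonic fibroblasts depleted of c-Myc, by comparing 2 libraries of cells that received siMyc and dox with 2 libraries of cells that received siMyc and no dox. These 4 libraries were taken by their labels, out of 12 in the series, and all 13175 genes that passed a filter on low values were compared. The cells of all groups were 2o 1B MEFs, secondary fibroblasts of 1 line. The other 8 libraries, used here only for comparison, came from the same cells with siControl or siGcn5, each without dox (day 0 in the labels) or with dox for 2 days, in 2 libraries per group. Per the labels' protocols, dox was added in medium for embryonic stem cells 24 h after the siRNA. The labels do not give the medium of the siRNA-treated cells without dox, so the effects of dox, of 2 days in culture and of a change of medium cannot be told apart. Nor do the labels tie siRNA pools or single siRNAs to these libraries, or replicates to separate cultures, so the p-values measure only the spread between libraries, which may be technical.

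Secondary fibroblasts of this kind carry introduced genes for the reprogramming factors Oct4 (Pou5f1), Sox2, Klf4 and c-Myc, which dox switches on. In the first days of reprogramming, fibroblasts are known to lose mesenchymal and matrix genes, to gain epithelial genes and to speed up growth and division. Myc, a transcription factor that binds DNA as a pair with Max, is known for driving genes of ribosome assembly, nucleotide synthesis and the cell cycle. Gcn5 (Kat2a) is the acetyltransferase of SAGA, a coactivator complex that works with Myc.

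Reads on genes, recovered from the values, were 156 M and 130 M (mega, replicates 1 and 2) in siMyc without dox and 65.5 M and 188 M in siMyc with dox, the lowest and the highest of the series. Levels are in RPKM (reads per kilobase, scaled to each library's total), and changes are differences of log2(RPKM + 1), a scale on which low genes appear to change less than they did. A gene was called at an adjusted p under 0.05 in limma, and "rose" or "fell" is written only of called genes. RPKM is relative to each library's total, and fewer cells of a type and less RNA per cell cannot be told apart. Of 13 defining fibroblast markers, all were tested and none was at 0 in siMyc cells. Their summed level was 10500 and 10600 RPKM without dox and 5950 and 5980 RPKM with dox, against 11500 and 11500, then 3380 and 2980 RPKM, in siControl. Markers of blood cells summed to 7.30 to 8.15 RPKM in siMyc without dox and 15.1 to 15.3 RPKM with dox, with Cd68 (2.51 and 2.15 RPKM, then 7.10 and 6.47) the highest of those that rose. Endothelial markers summed to 34.1 to 36.9 and 64.5 to 70.9 RPKM, skeletal muscle markers to 145 to 166 and 255 to 264, neural markers to 64.0 to 65.6 and 173 to 199, and adipocyte markers to 19.0 to 19.5 and 16.3 to 16.5. Most of the muscle sum was Acta1, and most of the neural sum was Tubb3. Whether other cells contributed to the results was not tested.

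Myc itself stood at 4.58 and 4.80 RPKM in siMyc without dox and at 16.9 and 26.2 RPKM with dox, a rise of 1.96 (SE 0.20, limma adjusted p = 1.8e-05). In siControl it went from 21.8 and 17.6 RPKM to 174 and 155 RPKM. The siMyc libraries with dox lay just below and just above both siControl libraries without dox, and far below both siControl libraries with dox. Introduced copies of the 4 factor genes and the cell's own genes are counted together. Pou5f1 rose from 1.05 and 1.20 to 97.9 and 122 RPKM (log2 5.70), and the siControl libraries with dox lay higher, at 288 and 249 RPKM. The difference between the 2 dox responses of Pou5f1 was −1.29 (adjusted p = 0.0013). Sox2 rose from 0.281 and 0.272 to 15.3 and 18.5 RPKM, against 35.1 and 29.1 RPKM in siControl with dox. Klf4 rose from 20.0 and 15.7 to 141 and 148 RPKM (log2 2.95, SE 0.15), and its response did not pass the test of a difference from siControl (−0.06, SE 0.22, adjusted p = 0.82). For Sox2 that difference was −0.84 (adjusted p = 0.044), a call that ended with any siControl library or 3 of the 4 siMyc libraries left out (0.055 to 0.133), under both other scalings (0.069 and 0.071), with no filter, with a pseudocount of 0.1 and with voom on the recovered reads (0.448).

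**Figure D1:**
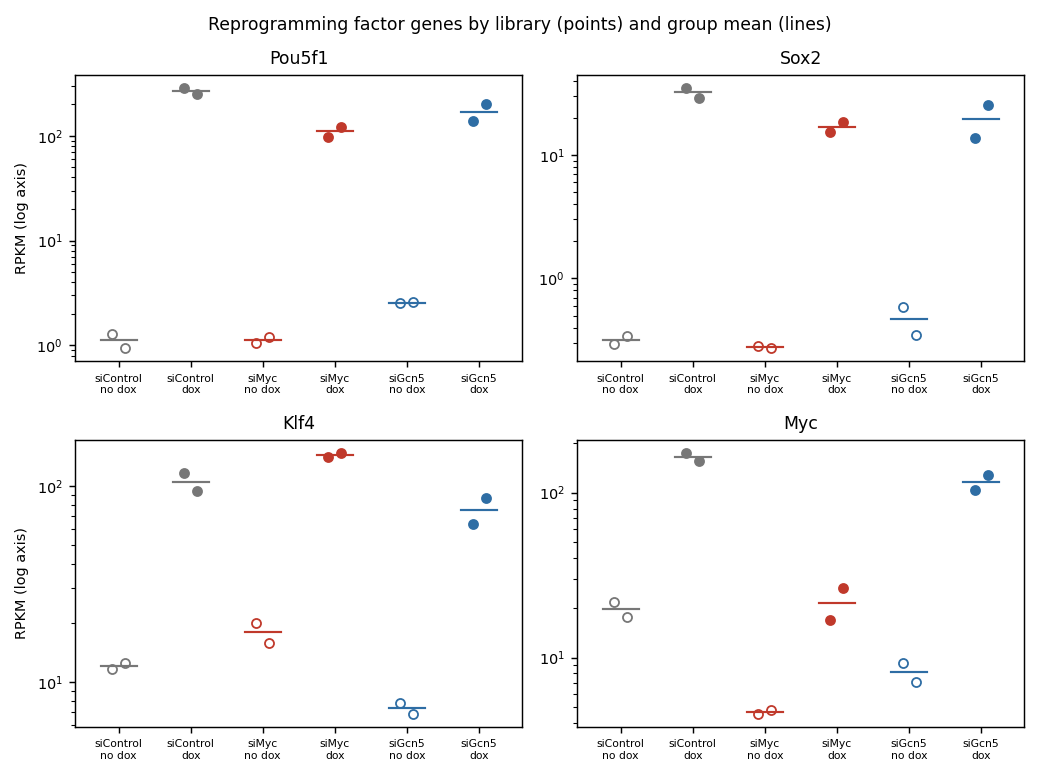
RPKM (log axis) of Pou5f1, Sox2, Klf4 and Myc in each library (points, open without dox and filled with dox) with the group mean as a line, in siControl (grey), siMyc (red) and siGcn5 (blue). In siMyc with dox Pou5f1 reached 97.9 and 122 RPKM and Klf4 141 and 148 RPKM, while Myc reached 16.9 and 26.2 RPKM.

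Genes of the Myc network moved in both directions. Of its 12 tested members, Myc included, 7 rose and 2 fell in siMyc (median 0.44), beside 28.9% and 15.9% of all genes. In siControl 8 rose and 3 fell (median 0.49), beside 46.1% and 27.9% of all genes. Mxd1, a repressor that competes with Myc for Max, rose from 1.43 and 1.72 to 6.09 and 5.22 RPKM (log2 1.37, adjusted p = 2.8e-05). Its relative Mxd4 fell from 24.1 and 24.1 to 17.4 and 17.4 RPKM (log2 −0.45). Kat2a did not pass the test, at 17.6 and 16.5 RPKM without dox and 18.1 and 19.4 with dox (log2 0.13, SE 0.15, adjusted p = 0.51). In siControl it rose from 23.0 and 20.7 to 55.7 and 53.1 RPKM, and the difference between the responses was −1.15 (SE 0.21, adjusted p = 0.0014). The groups of Kat2a did not overlap in either arm, but in siMyc this held for 9648 of the 13175 tested genes. Of 25 tested SAGA members 4 rose and 3 fell in siMyc, shares below the 28.9% and 15.9% of all genes, against 14 and 5 in siControl. None of the 25 rose without siMyc without dox replicate 2, 2 and 1 rose without siMyc with dox replicates 1 and 2, and 1 rose and 5 fell after quantile normalization.

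Of 13175 genes, 3804 rose (28.9%) and 2095 fell (15.9%) in siMyc. Among called genes 971 rose and 219 fell by at least 1 on the log2 scale. The median of all genes was 0.08, against 0.01 after median-ratio scaling and −0.08 after quantile normalization. Rises made up 64.5% of calls, 54.7% after median-ratio scaling (3136 up, 2593 down) and 40.2% after quantile normalization (2548 up, 3787 down). Small changes, of a size near these shifts, are given below with their medians under the other scalings where these change sign. In siControl 46.1% of genes rose and 27.9% fell, and rises were 62.3% of calls (52.2% and 49.9% under the same scalings). In siGcn5 36% rose and 22.4% fell, and rises were 61.6% of calls (49.2% and 43.0%). The dox responses of the 3 arms share no library.

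Many genes called in siControl were not called in siMyc. Of the 6075 genes that rose in siControl, 2566 also rose in siMyc (42.2% of the siControl list and 67.5% of the siMyc list), 122 fell (2.01%) and 3387 were not called. Of the 3676 that fell in siControl, 1614 also fell in siMyc (43.9% and 77.0%), 395 rose (10.7%) and 1667 were not called. Of 4742 genes that rose in siGcn5, an arm that enters neither response, the median change was 0.25 in siMyc and 0.79 in siControl, and it was smaller in siMyc for 77.6% of these genes. Of the 2951 that fell in siGcn5, the medians were −0.22 and −0.61, and the fall was smaller in siMyc for 84.0%. Across all genes tested the change in siMyc and in siControl had Pearson r = 0.65 and Spearman rho = 0.55. This is a description across genes, which are not independent, in libraries of 65.5 M to 188 M reads on genes.

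Tested directly, the dox response was higher in siMyc than in siControl for 3267 genes (24.8%) and lower for 3862 (29.3%). Against siGcn5 it was higher for 2370 genes (18%) and lower for 2239 (17%). "Higher" and "lower" here compare signed changes, so a smaller fall counts as higher. The plot of the change of each gene in both arms shows how the gene groups differ. Most cornified envelope genes lie along or above the line of equal change, ribosome biogenesis and mitosis genes below it, and most matrix genes above it on the side of falls.

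**Figure D2:**
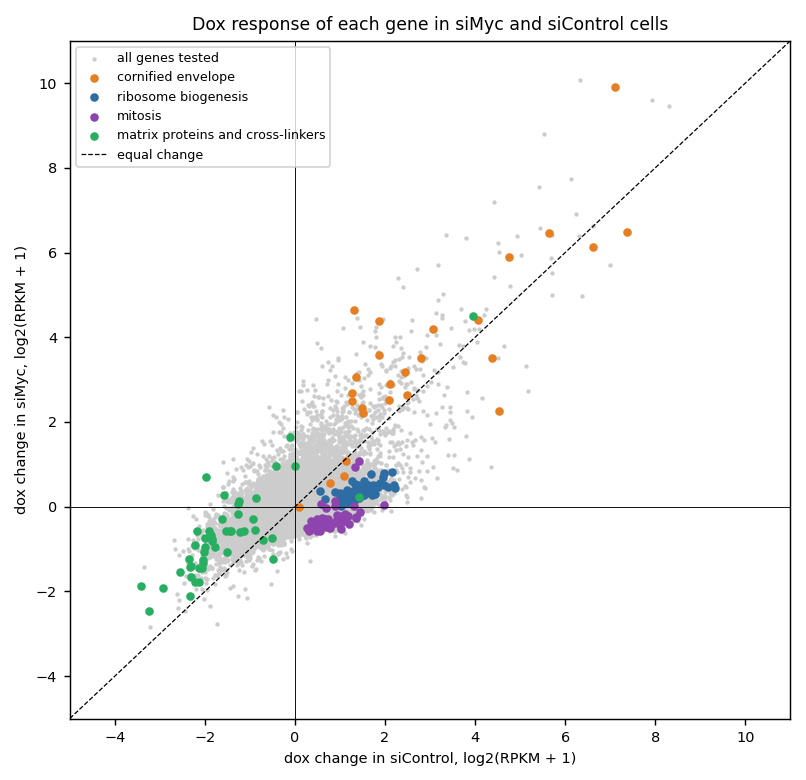
Change of each tested gene with dox, on the log2(RPKM + 1) scale, in siControl (horizontal axis) and siMyc (vertical axis), with 4 gene lists coloured and the line of equal change dashed. The medians of siControl and siMyc were 2.11 and 3.12 for the cornified envelope, 1.42 and 0.35 for ribosome biogenesis, 0.82 and −0.33 for mitosis, and −1.84 and −0.75 for matrix proteins and cross-linkers.

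Epidermal genes rose from near 0 to some of the largest levels gained in these cells. Of 26 tested genes of the cornified envelope, the protein shell of dead skin cells, 25 rose and none fell (median 3.12, beside 0.08 for all genes). Of 16 tested keratins 14 rose and 1 fell (median 2.98). Of 31 genes of epithelial adhesion 28 rose and 1 fell (median 1.86), and of 10 epithelial regulators 8 rose and none fell (median 1.49). The other arms gained these genes too: in the same list order 25, 12, 26 and 9 rose in siControl, and 24, 13, 25 and 9 in siGcn5. Of all genes 28.9% rose in siMyc, 46.1% in siControl and 36% in siGcn5. A count over tested genes leaves out 15 cornified envelope genes and 17 regulators that were found but did not reach 1 RPKM in 2 libraries. The filter could be passed through the dox groups alone, so these counts do not by themselves show that the lists rose. With no filter 16 regulators rose in place of 8, and 8 pluripotency genes in place of 4.

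The largest rise of all was that of 4732456N10Rik, which RefSeq lists as a synonym of the keratin gene Krt90. It was at 0 and 0 RPKM in siMyc without dox and at 1102 and 1042 RPKM with dox, against 83.8 and 77.5 RPKM in siControl and 40.2 and 47.8 RPKM in siGcn5 with dox. The difference between the responses of siMyc and siControl was 3.73 (SE 0.12, adjusted p = 3.9e-07). Cnfn, a component of the cornified envelope, went from 0.133 and 0 to 1081 and 978 RPKM, against 165 and 124 RPKM in siControl with dox. Krt16, a keratin of wounded and growing epidermis, went from 0.0409 and 0 to 806 and 783 RPKM (log2 9.61, SE 0.08, adjusted p = 2.5e-13), against 272 and 241 RPKM in siControl with dox (difference 1.67, adjusted p = 8.3e-06). Krt14, a keratin of the basal layer, reached 1005 and 904 RPKM in siMyc and 357 and 311 RPKM in siControl. For these 4 genes, every siMyc library with dox lay above every other library of the series. They were chosen for the largest rises in siMyc, which favours this order, so it is no separate evidence.

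Not every epidermal gene went higher in siMyc than in siControl. Krt17 reached 98.0 and 98.8 RPKM in siMyc and 108 and 92.7 RPKM in siControl, and the difference between its responses did not pass the test (0.03, SE 0.15, adjusted p = 0.89). Krtdap, which takes part in keratinocyte differentiation, reached 106 and 115 RPKM in siMyc and 170 and 185 RPKM in siControl (difference −0.91, SE 0.20, adjusted p = 0.0034). Sprr1b, a cornified envelope protein of squamous cells, reached 3.74 and 4.12 RPKM against 23.1 and 22.4 RPKM (difference −2.25). Krt8, a keratin of simple epithelia, reached 212 and 197 RPKM against 132 and 118 RPKM. Within the cornified envelope list the response was called higher than in siControl for 14 genes and lower for 4. Within epithelial adhesion these counts were 19 and 5.

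Some of these calls depended on the scale. With voom on the recovered reads the higher calls fell to 6 in the cornified envelope list and 11 in epithelial adhesion, and with a mean RPKM of at least 5 they were 7 and 11. The interaction calls of Cnfn (adjusted p = 0.067 with voom), Krt8 (0.130) and Sprr1b (0.540) ended with voom, as did that of Krt14, whose difference turned from 1.16 to −1.09 with voom (adjusted p = 0.180) and was 0.01 with a pseudocount of 0.1 (0.982). The calls of 4732456N10Rik, Krt16 and Krtdap did not end under any alternative. Of the 5 lower calls in epithelial adhesion, 2 or 3 were left without either siControl library without dox, siControl with dox replicate 1, either siMyc library without dox, or siMyc with dox replicate 1.

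Further rises were seen in genes with roles in skin. Alox12b, a lipoxygenase of the skin barrier, went from 0 and 0 to 84.0 and 105 RPKM, and Cyp4f39, which makes ultra-long fatty acids of that barrier, from 0.0195 and 0 to 83.1 and 87.2 RPKM. Dmkn, a protein secreted by the upper epidermis, reached 109 and 90.0 RPKM. Itgb4, the integrin subunit of hemidesmosomes, rose from 1.15 and 0.705 to 125 and 110 RPKM (log2 5.95, SE 0.13). Dsp, which links keratin filaments to desmosomes, rose from 0.833 and 0.801 to 25.0 and 26.8 RPKM, and siControl reached 24.9 and 27.1 RPKM (difference −0.16, SE 0.14, adjusted p = 0.34). Among regulators, Grhl3, a transcription factor of the skin barrier, rose from 0.0966 and 0.0608 to 18.7 and 19.5 RPKM (log2 4.22, adjusted p = 1.2e-10). Esrp2, a splicing factor of epithelial cells, rose from 1.74 and 1.59 to 24.0 and 24.5 RPKM. Both were higher in siMyc than in siControl with dox (12.8 and 12.2 RPKM for Grhl3, 16.7 and 15.6 for Esrp2). The differences between their responses were 0.75 and 0.46 (limma adjusted p = 0.00064 and 0.0094). The list as a whole was split. Of its 10 tested regulators, the response was called higher than in siControl for 3 and lower for 3. The median change was 1.49 in siMyc and 1.70 in siControl.

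The test of the difference from siControl also called genes outside the epidermal lists, given here together with Cdsn of the cornified envelope list. Notum, an enzyme that inactivates Wnt ligands, went from 0.212 and 0.145 to 23.0 and 25.6 RPKM in siMyc, and reached 0.859 and 0.692 RPKM in siControl and 0.853 and 0.594 RPKM in siGcn5. The difference from siControl was 3.96 (SE 0.14, adjusted p = 4.6e-07). Cd82, a tetraspanin of the cell surface, rose from 9.21 and 10.6 to 137 and 152 RPKM, against 17.9 and 16.0 RPKM in siControl (difference 3.17, SE 0.13). Cdsn, which holds cornified cells together, rose from 1.48 and 2.59 to 77.0 and 71.2 RPKM, against 6.91 and 5.45 RPKM (difference 3.34). Gpr133, an adhesion receptor, reached 26.2 and 23.5 RPKM against 1.68 and 1.11 RPKM, and Ppm1j, a protein phosphatase, 149 and 131 RPKM against 16.8 and 15.6 RPKM. Edn2, the vasoconstrictor peptide endothelin 2, went from 0.113 and 0.179 to 95.8 and 98.8 RPKM, against 12.0 and 8.06 RPKM (difference 3.08, SE 0.20, adjusted p = 6.4e-06). Edn2 and Ppm1j also rose in siControl (log2 3.34 and 2.28) and in siGcn5 (3.46 and 2.72). In each of these 6 genes the siMyc libraries with dox lay above all others, and no interaction call ended under an alternative. The genes were chosen for large differences or large rises in siMyc, which favours both outcomes, so neither is separate evidence. Bglap and Bglap2, the osteocalcin genes, reached 165 and 160 and 542 and 512 RPKM in siMyc, against 22.1 and 22.2 and 64.9 and 69.4 RPKM in siControl. Both rose in siControl too (log2 4.42 for Bglap and 5.54 for Bglap2). They are near-identical copies, so how reads were divided between them is uncertain.

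The maternally imprinted gene Mest rose in siMyc from 6.80 and 6.42 to 83.6 and 91.2 RPKM (log2 3.54, SE 0.12), and Mir335, which lies in an intron of Mest and may share its reads, from 5.61 and 5.56 to 87.6 and 86.5 RPKM. In siControl Mest went from 7.93 and 9.06 to 48.1 and 47.9 RPKM. In siGcn5 it fell, from 62.0 and 64.4 to 29.1 and 39.5 RPKM. The response of Mest was 4.41 higher in siMyc than in siGcn5 (adjusted p = 2.3e-07), and the groups without dox already differed.

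**Figure D3:**
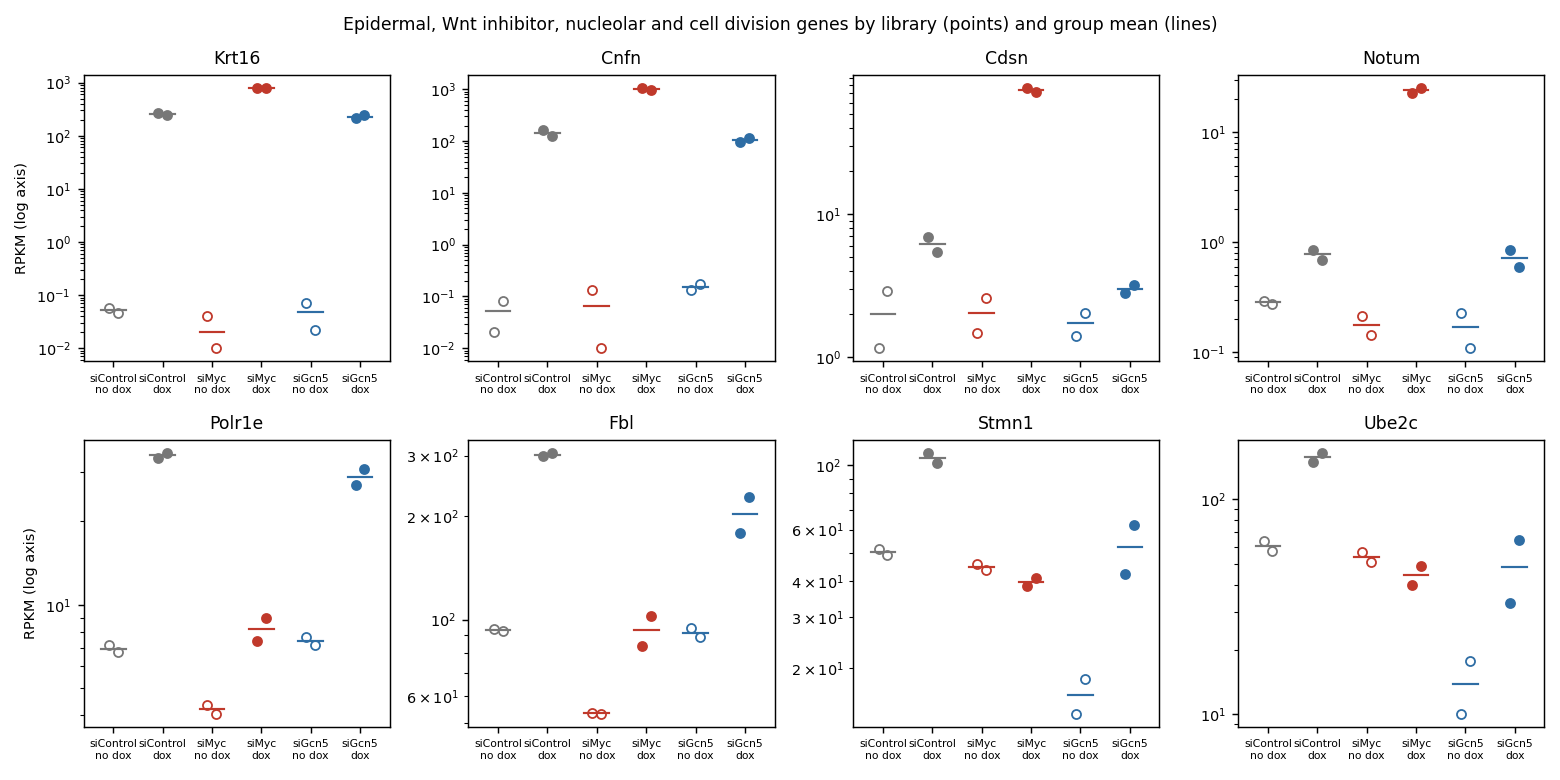
RPKM (log axis) of 8 genes in each library (points, open without dox and filled with dox; values under 0.01 are drawn at 0.01) with the group mean as a line. Krt16, Cnfn, Cdsn and Notum (top) were highest in siMyc with dox, and Polr1e, Fbl, Stmn1 and Ube2c (bottom) were higher in both siControl and siGcn5 with dox than without, while in siMyc Stmn1 stood at 45.6 and 43.6 RPKM without dox and 38.4 and 40.9 RPKM with dox.

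Genes of stem cell identity were mostly silent. Of 40 pluripotency genes found, 9 passed the filter. In siMyc 4 of these rose and 1 fell, beside 28.9% and 15.9% of all genes. In siControl 7 rose and 2 fell, and in siGcn5 also 7 and 2. Fgf4, a growth factor of the early embryo and a target of Oct4 and Sox2, was at 0 and 0 RPKM without dox and at 1.62 and 1.47 RPKM with dox, against 0.989 and 0.858 RPKM in siControl. L1td1, an RNA-binding protein of stem cells, rose from 0.0152 and 0.00522 to 2.86 and 3.57 RPKM, against 9.99 and 9.83 RPKM. Klf2, a factor of naive pluripotency that fibroblasts also express, fell from 9.18 and 8.95 to 4.75 and 4.77 RPKM (log2 −0.80, SE 0.14).

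Ribosome assembly is the classic program of Myc. Of 74 genes of ribosome biogenesis, 43 rose in siMyc and none fell, with a median of 0.35 (0.28 and 0.23 under the other scalings). In siControl all 74 rose, with a median of 1.42, and in siGcn5 all 74 rose, with a median of 0.93. The response was lower in siMyc than in siControl for 73 of 74 genes (29.3% of all genes) and lower than in siGcn5 for 51. The list's median level was 17.4 and 18.4 RPKM in siMyc before dox and 19.1 and 23.8 RPKM after it, against 23.7 and 23.5, then 58.8 and 64.5 RPKM, in siControl. With dox, 1 siMyc library lay below both siControl libraries without dox and the other about level with them. The count of 43 was 14 without siMyc with dox replicate 2, 22 and 24 without siMyc without dox replicates 1 and 2, and 26 with quantile normalization.

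Polr1e, a subunit of RNA polymerase I, rose from 4.36 and 4.06 to 7.41 and 8.95 RPKM (log2 0.81, SE 0.10, adjusted p = 7.5e-05), against 7.14 and 6.75 to 33.9 and 35.2 RPKM in siControl. Fbl, the methyltransferase of ribosomal RNA, rose from 53.4 and 53.3 to 83.7 and 102 RPKM (log2 0.78, SE 0.12), against 94.1 and 92.9 to 298 and 306 RPKM. Nop10, a subunit of the pseudouridine synthase complex, rose from 21.7 and 22.8 to 32.9 and 40.6 RPKM, against 33.9 and 31.8 to 127 and 132 RPKM. In all 3 genes the siMyc groups did not overlap, as in 9648 of the 13175 tested genes. Both siMyc libraries with dox lay far below both siControl libraries with dox. The differences between the responses were −1.35 for Polr1e, −0.90 for Fbl and −1.26 for Nop10 (adjusted p = 6.9e-05, 0.0012 and 0.00039).

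The binding site of Myc and Max, the E-box CACGTG (its own reverse complement, so both strands read alike), was looked for from 250 bases before to 50 after each start site in RefSeq promoters of GRCm38.p6, matched by symbol. Of the 13175 tested genes 10076 had a promoter in the table, and 11.9% of them held the site. The share was 12.6% among genes that rose in siMyc and 9.7% among those that fell. It was 12.8% among genes whose response was lower in siMyc than in siControl and 10.6% among those whose response was higher. Of 65 ribosome biogenesis genes with a promoter 13 held it (20.0%), of 39 translation genes 11 (28.2%), and of 22 cornified envelope genes and 20 collagens none. Lists with the same direction of response did not share a level. The share was 5.7% of 53 core spliceosome and 5.1% of 39 mitosis genes, whose responses were mostly lower in siMyc, and 4 of 13 epithelial adhesion genes (30.8%), whose responses were mostly higher. It was 37.5% of 24 genes of Cdk inhibitors, p53 and arrest. Over all 32851 promoters of the table the share was 7.2%. A match is a description of the sequence, not a bound site. The 3 genes shown, in which the site lies upstream of the start, were picked from those 13 to show what such a site looks like, with the E-box in capitals. Nop2, a methyltransferase of ribosomal RNA, holds it at chr6:125131799-125131852, Imp4, a factor of the small subunit, at chr1:34439684-34439737, and Rrn3, the initiation factor of RNA polymerase I, at chr16:13780627-13780680, all on the plus strand.
Nop2: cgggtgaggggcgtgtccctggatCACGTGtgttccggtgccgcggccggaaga
Imp4: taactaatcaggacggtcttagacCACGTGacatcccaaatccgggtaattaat
Rrn3: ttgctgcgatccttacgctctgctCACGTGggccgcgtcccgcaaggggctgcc

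The levels of these 3 genes are given to go with their sequences. Nop2 rose in siMyc from 26.4 and 27.3 to 32.2 and 40.4 RPKM (log2 0.41, adjusted p = 0.0079), against 46.5 and 40.9 to 118 and 117 RPKM in siControl. Imp4 stood at 18.3 and 16.4 RPKM without dox and 19.1 and 21.3 with dox in siMyc (log2 0.20, adjusted p = 0.077), and rose from 19.9 and 18.6 to 52.4 and 53.5 RPKM in siControl. Rrn3 stood at 21.5 and 21.6, then 21.4 and 24.7 RPKM, in siMyc (log2 0.09, adjusted p = 0.39), and rose from 22.8 and 22.9 to 42.0 and 46.2 RPKM in siControl.

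Medians of translation and splicing genes were also lower in siMyc than in siControl. Of 79 ribosomal protein genes 3 rose in siMyc and none fell (median 0.10), against 69 that rose in siControl (median 0.43). Many of them have near-identical copies, so their values are uncertain. Of 55 translation factors and tRNA synthetases 21 rose and none fell (median 0.18), against 44 up and 3 down in siControl (median 0.65). Eif6, which keeps ribosomal subunits apart, rose from 52.0 and 50.3 to 84.2 and 94.1 RPKM (log2 0.79), and its response did not pass the test of a difference from siControl (−0.16, SE 0.14, adjusted p = 0.33). Of 70 core spliceosome genes 13 rose and none fell (median 0.12), against 69 up and none down in siControl (median 0.87). Under quantile normalization the spliceosome median was −0.01 in siMyc, with 1 gene up and 2 down. Of 70 splicing regulators 7 rose and 3 fell in siMyc (median 0.04, −0.04 and −0.10 under the other scalings), against 53 and 6 in siControl (median 0.60).

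Besides Esrp2, the splicing regulators that rose most in siMyc were Nova2, Celf4 and Rbm38, in a list where 7 of 70 rose beside 28.9% of all genes. Celf4, a neuronal RNA-binding protein, rose from 1.85 and 1.63 to 8.12 and 6.90 RPKM, Nova2, another neuronal one, from 0.0817 and 0.0743 to 3.24 and 2.29 RPKM, and Rbm38, a target of p53, from 4.59 and 4.16 to 13.6 and 13.5 RPKM. Rbm38 reached 40.0 and 37.4 RPKM in siControl (difference −1.03, adjusted p = 0.0016). Rbfox2, a splicing factor of mesenchymal cells, fell from 30.1 and 31.1 to 24.6 and 23.5 RPKM (log2 −0.33, SE 0.08).

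Counts of small changes in these lists turned on single libraries. The 3 ribosomal protein genes that rose were 7 without siMyc with dox replicate 1, and none without siMyc without dox replicate 1 or with dox replicate 2. The 21 translation genes were 10 without siMyc with dox replicate 2, and 12 and 13 under median-ratio and quantile scaling. The 13 core spliceosome genes were 4 and 5 without siMyc without dox replicates 1 and 2, 7 and 4 without siMyc with dox replicates 1 and 2, and 3 with median-ratio scaling.

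Few genes of DNA replication and cell division were called in siMyc. Of 48 DNA replication genes none rose and 3 fell in siMyc (median −0.10), while 46 rose and 1 fell in siControl (median 1.09) and 42 rose in siGcn5 (median 0.90). Of 48 mitosis genes 2 rose and 3 fell in siMyc (median −0.33), while 40 rose in siControl (median 0.82) and all 48 rose in siGcn5 (median 1.03). The response of siMyc was lower than that of siControl for 46 replication and 40 mitosis genes, and lower than that of siGcn5 for 37 and 44. Mitosis genes summed to 704 and 723 RPKM in siMyc before dox and to 574 and 670 RPKM after it. In siControl it went from 920 and 860 to 1590 and 1820 RPKM, and in siGcn5 from 200 and 316 to 428 and 755 RPKM.

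By gene, Ube2c, which feeds the anaphase-promoting complex, stood in siMyc at 56.5 and 50.7 RPKM before dox and at 39.8 and 48.6 RPKM after it (log2 −0.28, adjusted p = 0.46), and rose from 63.5 and 57.4 to 149 and 163 RPKM in siControl. Stmn1, a microtubule regulator of dividing cells, stood at 45.6 and 43.6, then 38.4 and 40.9 RPKM, in siMyc, and rose from 51.3 and 49.2 to 110 and 102 RPKM in siControl (difference −1.23, SE 0.23, adjusted p = 0.0014). Spc25, a kinetochore protein, fell in siMyc from 14.4 and 14.4 to 8.77 and 9.88 RPKM (log2 −0.58, adjusted p = 0.0054) and rose from 15.2 and 15.2 to 19.6 and 23.8 RPKM in siControl. Cdc25b, a phosphatase that starts mitosis, was one of the 2 that rose in siMyc, from 6.03 and 6.71 to 14.5 and 11.8 RPKM. E2f1, a transcription factor of S phase entry, fell from 20.4 and 16.1 to 10.6 and 8.54 RPKM (log2 −0.87, SE 0.17, adjusted p = 0.0020). Each of the 4 siMyc libraries left out in turn left 1 fall among mitosis genes. For DNA replication 1 fall was left without siMyc without dox replicate 1, where the calls of Rpa1 and Gins2 ended and the median was 0.02, and 8 genes fell after quantile normalization. Among mitosis genes 23 of 48 fell in siMyc with only the 2 siMyc groups in the fit, and 8 with quantile normalization. The 40 lower responses against siControl were 22 and 15 without siControl replicate 2 without and with dox, 25 without siMyc without dox replicate 2, and 18 without siMyc with dox replicate 1. The 44 against siGcn5 were 25 without siMyc without dox replicate 2, 23 without siMyc with dox replicate 1, and 25 and 29 without siGcn5 without dox replicate 1 and with dox replicate 2.

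The shares of metabolic genes that rose in siMyc were near that of all genes. In the list of nucleotide and one-carbon synthesis 12 of 41 rose and 4 fell (median 0.15), beside 28.9% and 15.9% of all genes, against 36 and 2 in siControl (median 0.97), and 31 responses were lower than in siControl and none higher. Odc1, which starts polyamine synthesis and is a well-known Myc target, rose from 122 and 102 to 268 and 249 RPKM (log2 1.20, SE 0.09), against 97.7 and 91.1 to 335 and 344 RPKM. Ppat, the first enzyme of purine synthesis, rose from 4.21 and 4.57 to 9.66 and 13.0 RPKM, against 6.57 and 5.91 to 29.1 and 35.1 RPKM. Shmt1, a serine hydroxymethyltransferase, stood at 2.89 and 3.05 RPKM without dox and 3.64 and 7.61 with dox (log2 0.67, adjusted p = 0.063), against a rise from 6.76 and 5.58 to 59.96 and 66.09 RPKM (difference −2.49, adjusted p = 0.00044). Hprt, of purine salvage, rose in siMyc from 93.1 and 87.9 to 182 and 181 RPKM, and its response did not pass the test of a difference from siControl (0.12, SE 0.11, adjusted p = 0.38). The count of 12 was 20 without siMyc with dox replicate 1. In glycolysis 6 of 25 genes rose and 7 fell, beside the same 28.9% and 15.9%. Pfkfb4, which makes an activator of glycolysis, rose from 7.28 and 5.58 to 39.8 and 34.8 RPKM, against 6.10 and 5.07 RPKM in siControl with dox (difference 1.96, SE 0.20, adjusted p = 6.6e-05). The count of 7 was 4 without siMyc without dox replicate 2 and 11 with quantile normalization.

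**Figure D4:**
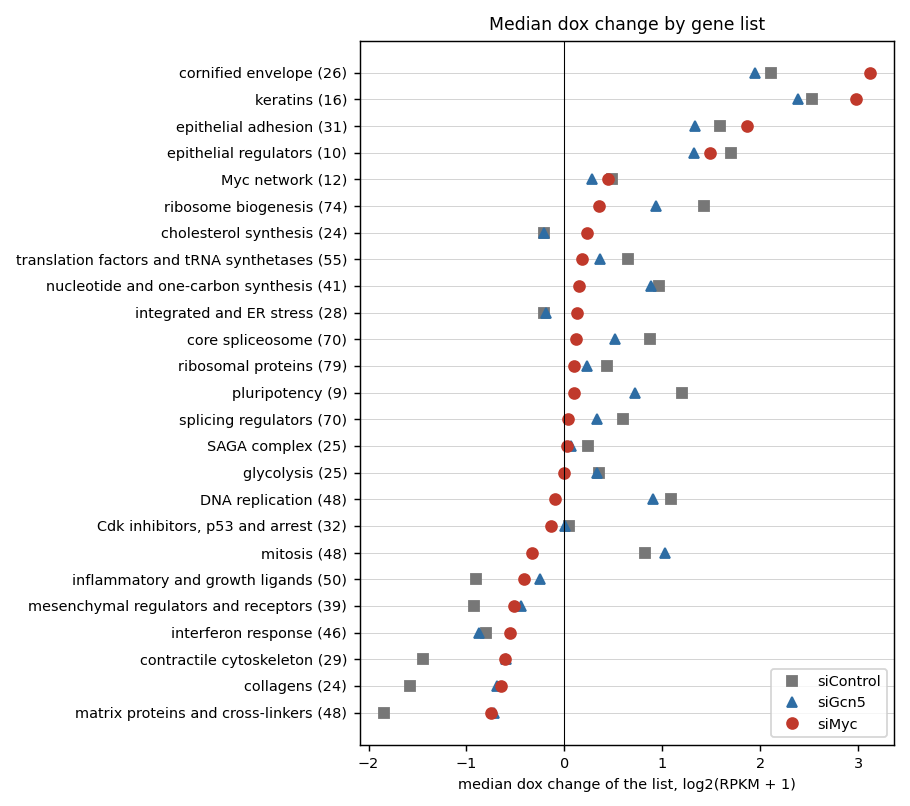
Median change with dox, on the log2(RPKM + 1) scale, of the tested members of each gene list (number tested in parentheses) in siMyc (circles), siControl (squares) and siGcn5 (triangles). Medians of siMyc and siControl were 2.98 and 2.53 for keratins, 0.12 and 0.87 for the core spliceosome, −0.10 and 1.09 for DNA replication, and −0.65 and −1.58 for collagens.

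Genes of the fibroblast state fell, and most fell less than in siControl. Of 24 collagens 16 fell and 1 rose in siMyc (median −0.65), against 23 that fell in siControl (median −1.58). Of 48 matrix proteins and cross-linkers 37 fell and 6 rose (median −0.75), against 44 and 2 (median −1.84). Of 29 genes of the contractile cytoskeleton 23 fell and none rose (median −0.61), against 29 and none (median −1.44). Of 39 mesenchymal regulators and receptors 24 fell and 6 rose (median −0.51), against 31 and 3 (median −0.92). The response was higher, so the fall smaller or the rise larger, in siMyc than in siControl for 18 collagens, 36 matrix genes, 23 contractile genes and 18 regulators, and lower for none, 2, none and 1. In siGcn5 the medians were −0.69, −0.72, −0.60 and −0.44, and against that arm 3 collagens were higher in siMyc and 1 lower. The 23 contractile genes were 15 without siMyc without dox replicate 2 or siMyc with dox replicate 2.

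Col1a2, a chain of type I collagen, fell in siMyc from 2412 and 2520 to 1191 and 1267 RPKM, and in siControl from 2428 and 2578 to 511 and 456 RPKM (difference 1.37, SE 0.13, adjusted p = 5.3e-05). Col11a1 fell from 57.8 and 62.3 to 24.6 and 25.7 RPKM, against 51.0 and 51.5 to 8.73 and 9.40 RPKM. Postn, a matrix protein of activated fibroblasts, fell from 96.8 and 129 to 29.5 and 30.1 RPKM, against 127 and 175 to 12.9 and 13.0 RPKM (difference 1.55, adjusted p = 0.00075). Without dox the siMyc and siControl libraries of Col1a2 and Postn overlapped, and those of Col11a1 lay higher in siMyc. For all 3 genes the libraries with dox were separate from those without dox in each arm. In siMyc the groups were separate in 9648 of the 13175 tested genes. Filip1l fell from 48.1 and 46.6 to 23.1 and 17.5 RPKM, and Tgfb1i1, a partner of TGF-beta signalling at focal adhesions, from 71.9 and 74.0 to 39.5 and 34.7 RPKM.

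For some falls the difference from siControl did not pass the test, which does not show that they were alike. Snai2 (Slug), a transcription factor that represses epithelial genes, fell from 38.8 and 38.4 to 10.8 and 8.11 RPKM (log2 −1.93, SE 0.15), against −2.19 in siControl (difference 0.26, SE 0.21, adjusted p = 0.32). Cxcl12, a chemokine of stromal cells, fell from 30.6 and 45.6 to 5.99 and 5.92 RPKM (difference −0.02, SE 0.30, adjusted p = 0.96). Ptn, a heparin-binding growth factor, fell from 14.4 and 25.1 to 1.40 and 2.29 RPKM, the largest fall of the siMyc arm (log2 −2.84, SE 0.28, adjusted p = 1.5e-05). Its difference from siControl did not pass either (0.38, SE 0.39, adjusted p = 0.44). Pdgfra and Pdgfrb, the receptors of platelet-derived growth factor, fell from 7.97 and 7.77 to 2.47 and 2.18 RPKM and from 74.7 and 71.8 to 17.0 and 16.9 RPKM. Pdgfrb fell less than in siControl (difference 0.57, adjusted p = 0.0088), and for Pdgfra the difference did not pass (0.25, SE 0.15, adjusted p = 0.18). Other large falls were Sfrp4, an inhibitor of Wnt ligands (7.59 and 12.0 to 0.469 and 0.641 RPKM), Rgs4, which dampens G protein signals (53.8 and 51.0 to 10.6 and 7.80), Wisp2 (65.2 and 61.2 to 10.9 and 10.5) and the collagenase Mmp13 (8.65 and 9.54 to 1.27 and 0.753). Wisp2 fell less than in siControl (difference 0.78, SE 0.10, adjusted p = 0.00023). Sfrp4 fell further (difference −1.04, SE 0.39, adjusted p = 0.044), a call that ended with any siControl library but replicate 2 without dox left out, with any siMyc library but replicate 1 without dox left out (0.062 to 0.164 in all), and with voom (0.484), median-ratio scaling (0.054), no filter or a pseudocount of 0.1. Rgs4 and Mmp13 did not pass that test (0.19 and −0.46, adjusted p = 0.56 and 0.052). Smoc1, a matrix protein that modulates BMP signals, fell further than in siControl, from 28.6 and 33.8 to 6.46 and 5.91 RPKM against 31.6 and 32.2 to 15.2 and 14.4 RPKM (difference −1.10, SE 0.20, adjusted p = 0.0012).

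A minority of matrix and mesenchymal genes rose. Dcn, the proteoglycan decorin, rose from 10.9 and 12.1 to 272 and 293 RPKM (log2 4.50), against 4.59 and 6.81 to 100 and 103 RPKM. Mme, a cell surface peptidase, rose from 2.54 and 2.95 to 35.1 and 38.2 RPKM, against 10.3 and 11.8 RPKM in siControl with dox (difference 1.10, SE 0.13, adjusted p = 0.00015). Loxl4, a cross-linking enzyme of collagen and elastin, rose from 20.3 and 18.6 to 66.5 and 59.5 RPKM, and in siControl it stood at 26.4 and 22.4, then 26.5 and 19.0 RPKM (difference 1.75, SE 0.24, adjusted p = 0.00027). Tgfbr2, the type 2 receptor of TGF-beta, rose from 26.7 and 25.8 to 61.9 and 64.9 RPKM (log2 1.24, SE 0.07, adjusted p = 2.9e-07), and fell in siControl from 20.4 and 22.6 to 16.4 and 16.4 RPKM (difference 1.61, SE 0.10, adjusted p = 5.7e-06).

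In all, 395 genes rose in siMyc, fell in siControl and were called in the test of the difference, and 122 fell in siMyc, rose in siControl and were called in it. Pgf, a growth factor of the VEGF family, led the first set, from 8.05 and 6.72 to 44.2 and 38.8 RPKM in siMyc and from 3.40 and 3.44 to 2.33 and 1.62 RPKM in siControl (difference 2.92, SE 0.19, adjusted p = 5.8e-06). Adamts2, which trims procollagen, rose from 18.9 and 21.4 to 32.6 and 34.3 RPKM and fell in siControl from 15.9 and 17.6 to 3.67 and 3.41 RPKM. Igfbp3, a binding protein of insulin-like growth factors, rose from 32.2 and 24.5 to 49.4 and 50.3 RPKM and fell in siControl from 30.0 and 25.1 to 9.56 and 8.41 RPKM. Wnt9a, a Wnt ligand, rose from 2.91 and 2.43 to 17.3 and 13.6 RPKM, Myl4, a myosin light chain, from 2.36 and 2.69 to 14.4 and 13.9 RPKM, and the glucose transporter Slc2a10 from 5.78 and 6.16 to 18.5 and 15.8 RPKM, while in siControl with dox they stood at 1.83 and 1.49, 2.31 and 2.12, and 2.68 and 2.11 RPKM. In siGcn5 Adamts2, Igfbp3 and Slc2a10 fell and Myl4 rose, while Pgf and Wnt9a did not pass the test.

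In the second set, Fkbp11, a folding enzyme of the endoplasmic reticulum, fell in siMyc from 32.8 and 28.2 to 21.1 and 23.2 RPKM (log2 −0.44, SE 0.09, adjusted p = 0.0031) and rose in siControl from 33.3 and 33.6 to 95.0 and 93.7 RPKM (difference −1.91, SE 0.13, adjusted p = 8.8e-06). Its siGcn5 libraries rose too, from 36.8 and 38.8 to 98.1 and 115 RPKM. Nme4, a nucleoside diphosphate kinase of mitochondria, fell from 14.1 and 14.4 to 8.20 and 10.5 RPKM and rose in siControl from 28.8 and 25.1 to 52.1 and 49.8 RPKM. Gtse1, a protein of the G2 and S phases, fell from 16.8 and 18.8 to 10.4 and 13.1 RPKM and rose in siControl from 25.0 and 25.8 to 44.9 and 49.8 RPKM. The carbonic anhydrase Car13 fell from 12.3 and 11.5 to 8.25 and 7.40 RPKM and rose in siControl from 7.57 and 7.55 to 15.3 and 14.7 RPKM. Of the other genes of this set chosen by size, the fall in siMyc was no longer called for Emb without siMyc replicate 2 in either group (adjusted p = 0.055 without dox, 0.072 with dox), for Prelid2 without siMyc without dox replicate 1 (0.108) or with dox replicate 2 (0.065), and for Pde3b without 3 of the 4 siMyc libraries (0.075 to 0.175).

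**Figure D5:**
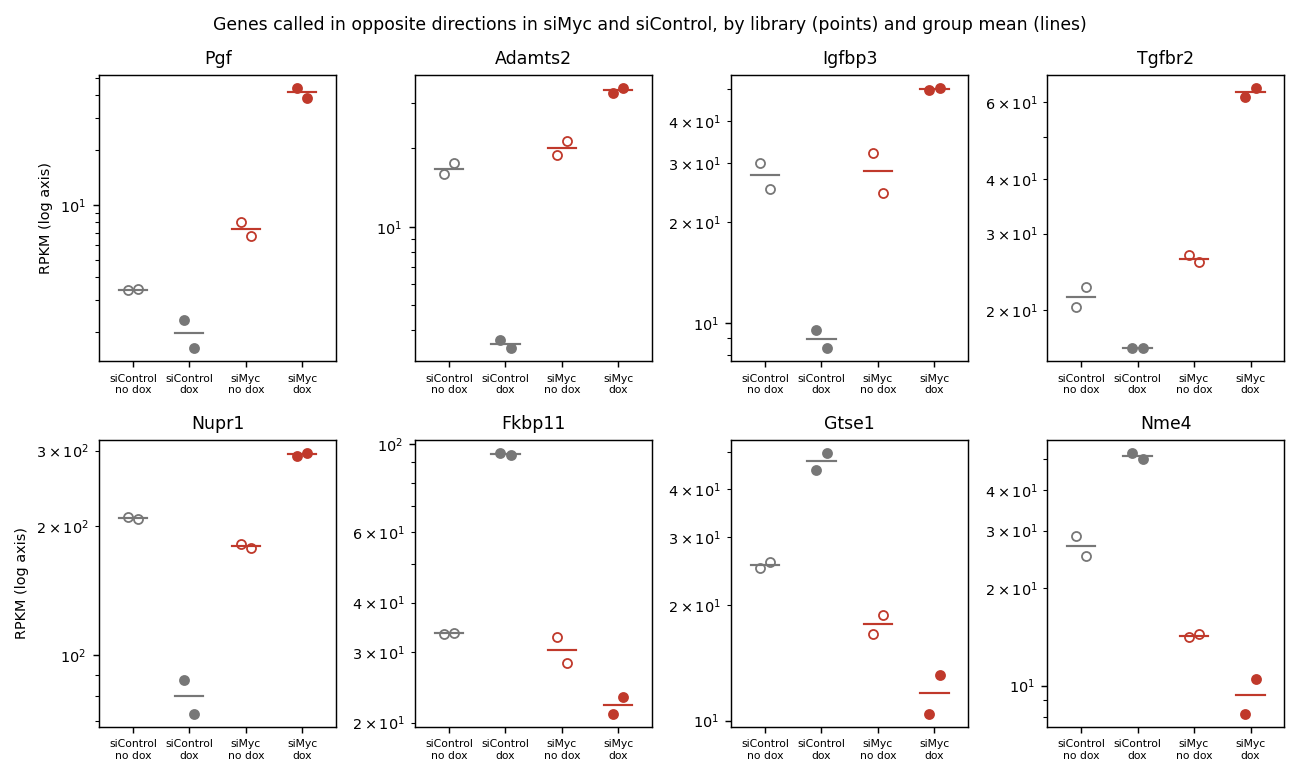
RPKM (log axis) of 8 genes called in opposite directions in siMyc (red) and siControl (grey), in each library (points, open without dox and filled with dox) with the group mean as a line. Pgf, Adamts2, Igfbp3, Tgfbr2 and Nupr1 rose in siMyc and fell in siControl, and Fkbp11, Gtse1 and Nme4 did the reverse.

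Stress and arrest genes were mixed. Of 28 genes of the integrated and ER stress responses 10 rose and 3 fell in siMyc, beside 28.9% and 15.9% of all genes. The median was 0.13 (0.07 and 0.00 under the other scalings). In siControl 4 rose and 12 fell (median −0.21). Atf3, an early stress transcription factor, rose from 1.76 and 1.73 to 12.5 and 10.9 RPKM, against 6.01 and 5.60 RPKM in siControl with dox. Nupr1, a small stress-induced nuclear protein, rose from 181 and 177 to 291 and 296 RPKM (log2 0.71, SE 0.08), and fell in siControl from 210 and 208 to 87.4 and 73.0 RPKM (difference 2.09, SE 0.12, adjusted p = 3.0e-06). Atf5 fell in siMyc from 86.9 and 85.6 to 48.6 and 45.4 RPKM. The count of 10 was 5 without siMyc without dox replicate 2 or with dox replicate 1, and 6 with quantile normalization. Of 32 genes of Cdk inhibitors, p53 and arrest 7 rose and 8 fell in siMyc, beside the same 28.9% and 15.9% of all genes. Cdkn1a (p21), which blocks cyclin-dependent kinases, rose from 122 and 126 to 241 and 250 RPKM (log2 0.98, SE 0.09), against 176 and 186 to 290 and 284 RPKM in siControl. Cdkn2a, which encodes p16 and p19Arf, fell from 70.2 and 74.2 to 34.1 and 43.8 RPKM (log2 −0.88, SE 0.14). Perp, a p53 target and desmosome protein, rose from 13.1 and 11.6 to 124 and 123 RPKM. The 7 that rose were 4 without siMyc without dox replicate 2, and the 8 that fell were 16 with quantile normalization. In cholesterol synthesis 6 of 24 genes rose and none fell, a share below the 28.9% of all genes (5 to 11 rose and 0 to 3 fell under alternatives), with Pmvk from 11.8 and 14.4 to 38.5 and 36.9 RPKM and Srebf2, its transcriptional regulator, from 39.0 and 42.5 to 62.1 and 63.1 RPKM (log2 0.61, SE 0.12).

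Summed levels of interferon response genes varied most between replicates in siGcn5 (2380 and 1610 RPKM without dox, 1510 and 950 with dox). In siMyc the sums were 1230 and 1330, then 1230 and 1150 RPKM. Of 46 tested genes of this list 14 fell and 4 rose in siMyc (median −0.56), beside 15.9% and 28.9% of all genes. In siControl 23 fell and 1 rose (median −0.80). Iigp1, a GTPase of cell defence, fell from 2.83 and 2.10 to 0.230 and 0.170 RPKM (log2 −1.52, SE 0.28, adjusted p = 0.0015). Zbp1, a sensor of nucleic acids, rose from 1.51 and 1.84 to 4.82 and 4.43 RPKM (log2 1.07, adjusted p = 0.0068), and in siControl stood at 0.471 and 0.385, then 0.299 and 0.209 RPKM. The count of 14 was 7 without either siMyc library without dox, 4 and 6 without siMyc with dox replicates 1 and 2, and 27 with only the 2 siMyc groups in the fit. Of 50 inflammatory and growth ligands 25 fell and 14 rose in siMyc (median −0.41), beside 15.9% and 28.9% of all genes. The share that rose was thus near that of all genes, and the 14 include Edn2, Notum and Pgf. In siControl 33 fell and 7 rose (median −0.90).

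Replicates of a group correlated at Spearman 0.986 to 0.988 across all 23284 symbols, with those below the filter included. Their recovered reads differed by more than sampling noise (chi-square per degree of freedom 33.6 to 92.5), so no pair was counted as 1 library. On principal components of the tested genes, siMyc libraries with dox lay at 60.1 and 52.5 on the second component (24.4% of variance) and the other 10 libraries at −31.4 to 15.3.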

How the data were processed

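Ribosomal RNA-depleted total RNA was sequenced in 12 libraries, 2 in each of 6 groups. The deposited values are RPKM per gene symbol, made by the authors. Their submitted processing notes list Bowtie 0.12.8, TopHat2 2.0.9, edgeR, HTSeq, affy and the build mm9, and which tool made these values is not given in the sources used here. Of 23284 symbols, the 13175 with at least 1 RPKM in at least 2 libraries were tested.

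log2(RPKM + 1) was fitted with limma 3.58.1 in R 4.3.3 (mean-variance trend, 1 term per group, 6 residual and 4.17 prior degrees of freedom), and two-sided p-values were Benjamini-Hochberg adjusted over all tested genes. Differences between dox responses are interaction terms of the same fit. Steps in the low values gave back whole reads for 20788 of 20788 genes (within 0.05 read), used with voom as an alternative. The scripts were tested on simulated data. The members and lists were chosen with earlier results of these data known. Genes named are the reprogramming factors, Myc and Kat2a; the 15 called genes that changed most each way, with libraries apart and a higher group mean of at least 2 RPKM; the 8 largest each way for each difference and for opposite calls; and up to 4 members per list, with up to 2 against its median. Nop2, Imp4 and Rrn3 were singled out after values were seen. Promoters are RefSeq's, of GRCm38.p6. Alternatives were other pseudocounts, filters and scalings, a replicate block, array weights, voom, fits of the compared groups alone, and each library left out.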

Additional observations from a re-analysis of the deposited data

Results flagged for a closer look

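Differences between the dox responses of 2 arms are listed because the interaction term itself passed the test (limma, adjusted p under 0.05). Against siControl the response of siMyc was higher for 3267 genes and lower for 3862, and against siGcn5 higher for 2370 and lower for 2239.

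The largest higher responses against siControl, on the log2(RPKM + 1) scale, were Notum (3.96), 4732456N10Rik (3.73), Ccdc114 (3.37), Cdsn (3.34), Bglap2 (3.26), Cd82 (3.17), Gpr133 (3.16) and Ppm1j (3.12). The largest lower ones were Shmt1 (−2.49), Adap1 (−2.45), Sprr1b (−2.25), Pcsk6 (−2.18), Nup210 (−2.13), 4930572J05Rik (−2.10), Cdca7l (−1.96) and Tst (−1.92). The calls of Sprr1b and Nup210 ended with voom (adjusted p = 0.540 and 0.071).

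Among genes called in opposite directions in siMyc and siControl, those that rose in siMyc were led by Pgf (2.92), Adamts2 (2.67), Aplp1 (2.66), Wnt9a (2.66), Myl4 (2.54), Dpep1 (2.51), Igfbp3 (2.32) and Slc2a10 (2.31). Those that fell in siMyc were led by Fkbp11 (−1.91), Emb (−1.73), Rasl11a (−1.61), Prelid2 (−1.50), Pde3b (−1.50), Nme4 (−1.47), Car13 (−1.45) and Gtse1 (−1.43).

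Against siGcn5 the largest higher responses were Mir335 (4.60), 4732456N10Rik (4.58), Mest (4.41), Bglap2 (4.36), Cdsn (4.09), Bglap (3.99), Notum (3.86) and Gpr133 (3.79). The largest lower ones were Sprr1b (−2.05), Cdca7l (−2.04), Ube2c (−1.98), Fkbp11 (−1.91), Aurkb (−1.82), Krt20 (−1.80), Selp (−1.79) and Stmn1 (−1.78). With voom the calls of Bglap2, Bglap and Sprr1b ended (adjusted p = 0.074, 0.065 and 0.278).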

How the results depend on the processing

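With a mean RPKM of at least 5, which tests fewer genes, 2390 genes rose in siMyc and 1513 responses were higher than in siGcn5. With quantile normalization 3787 genes fell in siMyc, and the cause was not tested. Leaving out 1 library at a time, 2890 to 3155 genes rose and 1413 to 1726 fell in siMyc. In the same fits 2548 to 3114 responses were higher and 3194 to 3552 lower than in siControl, and 1684 to 2592 higher and 1469 to 2409 lower than in siGcn5. The value of 1469 was without siMyc with dox replicate 1. Where an arm kept 1 library, that library was assumed to vary like the other groups. Median-ratio scaling moved the share of higher responses among calls against siControl from 45.8% to 55.3%.

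With the replicate number as a block 4440 genes rose and 2500 fell in siMyc, 3881 responses were higher and 4406 lower than in siControl, and 3026 higher and 2964 lower than in siGcn5. The deviations of same-numbered libraries correlated at 0.09 to 0.49, but with 2 numbers per group the numbers were not taken to pair the samples.

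For the dox change in siMyc of the 188 named genes, 2481 of 2592 values under alternatives stayed on their side of the threshold, 105 lost their call, 6 gained one and 0 changed sign. For the difference from siControl 164 of 3344 values lost their call and 35 gained one, and from siGcn5 216 and 61 of 3344. Calls under every alternative that tested the gene were kept by 151 of 182 genes in siMyc, 99 of 136 against siControl and 77 of 119 against siGcn5. Called differences that turned sign were, with voom, those from siControl of Krt14 (−1.09) and Iigp1 (0.36) and those from siGcn5 of Dmkn (−1.84), Nup210 (1.12), Mme (−0.32) and Tnni1 (−2.19). With pseudocounts of 0.1 and 5, those from siGcn5 of Mme (−0.20) and Dsp (−0.06) turned. None of these was called after turning, and the cause was not tested. Uncalled differences changed sign in 60 values against siControl and 66 against siGcn5. Each group has 2 libraries, and siMyc with dox replicate 1 has the fewest reads.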
